A study of Mus musculus with 32 samples.

Results

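Major urinary proteins are small secreted lipocalins that hepatocytes of the mouse make in large amounts, most of all in males, and that pass through the blood into the urine, where they bind and slowly release pheromones. They are encoded by a cluster of closely related gene copies, and their transcription in liver is known to depend on pulses of growth hormone acting through STAT5, on androgens, on thyroid hormone and on glucocorticoids. The 7 genes described here, Mup3, Mup20, Mup21, Mup10, Mup11, Mup7 and Mup17, were taken by symbol from a table of raw counts for 47643 Ensembl genes. They are 7 of the 21 Mup genes that have a row in that table, of 22 in the annotation.

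Liver RNA came from C57BL/6J mice that were 10 weeks old at the start, and male, since their epididymal fat (eWAT) was measured as well. For 7 days the mice drank water with corticosterone (cort) or only its ethanol vehicle (veh), and ate a normal protein diet (NPD, 20% of kcal from protein) or a high protein diet (HPD, 60% of kcal from protein). The HPD held less carbohydrate than the NPD, so the diets differed in both nutrients. Each of the 4 groups had 4 libraries. Replicate 4 of the Veh HPD group was left out here, since the plan of the fits listed it as an outlier. In it the 7 genes summed to 445.5 CPM, against 4597 to 42568 in the 15 other liver libraries. Its 10 hepatocyte markers summed to 41007 CPM, against 75002 to 248279. The low Mup level is the outcome described here and is not offered as a reason for the choice. That choice bears on every call below, since with this library in the fit no member was called in any comparison. Total counts of these 15 ranged from 8933307 to 17447524. CPM is the count of a gene relative to the library total, after scaling with trimmed mean of M-values (TMM) factors, and a gene is called where edgeR's quasi-likelihood test gave a Benjamini-Hochberg adjusted p under 0.05 over the 12391 liver genes tested. Which cohort each mouse came from was not given in the sources used here, so the p-values measure the spread between these libraries.

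The copies lie within 2194060 bases of chromosome 4 (GRCm38), and 21 of the 22 annotated Mup genes are on the minus strand. Mup7 (chr4:60066469-60070475), Mup10 (chr4:60578260-60582199), Mup11 (chr4:60658466-60662411) and Mup17 (chr4:61591929-61595871) lie among the most alike copies of the cluster. Mup20 (chr4:62050234-62054158), which encodes darcin, a male pheromone protein, Mup3 (chr4:62083476-62087342) and Mup21 (chr4:62147932-62150863) stand at one end of it. The libraries were made by QuantSeq, which reads only the 3′ end of a transcript, so how far each copy can be told apart was measured from its last 300 transcript bases. Of the 50-base windows in them, the share found in no other gene was 94.8% for Mup3, 91.2% for Mup20 and 82.1% for Mup21. It was 56.6% for Mup17, 19.3% for Mup11, 3.38% for Mup7 and 0% for Mup10. All windows of Mup10 also occur in Mup13, and 92.8% of those of Mup7 occur in Mup15. By identical windows of this length, the 3′ ends of Mup3, Mup20 and Mup21 were thus mostly their own. The split of reads among Mup7, Mup10, Mup11 and Mup17 is uncertain, and their sum with the other members is given as well.

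The start regions of the copies also form sequence groups, though not with the same degrees of likeness as the 3′ ends. RefSeq promoters (GRCm38.p6, minus strand, 250 bases before to 50 after the start site) were found for 6 of the 7 members and 14 Mup genes in all. The 4 shown are those of the members with the most counts in each sequence group: Mup3 (chr4:62087268-62087567), Mup21 (chr4:62150792-62151091), Mup11 (chr4:60662346-60662645) and Mup17 (chr4:61595783-61596082), with capitals for a core promoter motif (TATATAA) and for 1 arm of the palindrome that the glucocorticoid receptor binds (TGTTCT).
Mup3: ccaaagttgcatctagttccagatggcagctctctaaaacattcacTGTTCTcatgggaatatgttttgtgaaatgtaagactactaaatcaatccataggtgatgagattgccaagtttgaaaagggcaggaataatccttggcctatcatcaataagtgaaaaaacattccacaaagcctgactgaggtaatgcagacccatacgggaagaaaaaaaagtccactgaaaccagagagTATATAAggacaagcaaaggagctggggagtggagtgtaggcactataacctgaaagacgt
Mup21: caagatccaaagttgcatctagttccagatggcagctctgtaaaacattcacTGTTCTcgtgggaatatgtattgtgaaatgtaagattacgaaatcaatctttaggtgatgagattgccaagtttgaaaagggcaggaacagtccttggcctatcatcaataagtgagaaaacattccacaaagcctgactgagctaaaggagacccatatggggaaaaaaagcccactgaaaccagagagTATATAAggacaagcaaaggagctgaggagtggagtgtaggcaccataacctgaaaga
Mup11: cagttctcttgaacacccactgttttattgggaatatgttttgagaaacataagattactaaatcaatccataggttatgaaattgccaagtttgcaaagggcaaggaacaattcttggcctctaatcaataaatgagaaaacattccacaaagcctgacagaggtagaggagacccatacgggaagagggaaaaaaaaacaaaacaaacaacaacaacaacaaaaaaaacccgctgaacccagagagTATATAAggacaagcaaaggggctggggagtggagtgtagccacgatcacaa
Mup17: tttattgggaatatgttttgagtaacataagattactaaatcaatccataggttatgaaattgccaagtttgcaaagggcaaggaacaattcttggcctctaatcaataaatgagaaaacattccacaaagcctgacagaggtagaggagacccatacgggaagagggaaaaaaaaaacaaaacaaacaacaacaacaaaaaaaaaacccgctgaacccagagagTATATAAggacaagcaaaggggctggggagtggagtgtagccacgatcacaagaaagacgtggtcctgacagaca
Over aligned bases, Mup11 and Mup17 were identical at 275 of 276 positions (99.6%), and Mup3 and Mup21 at 277 of 294 (94.2%). Between a gene of the first pair and one of the second the identity was 86.3% to 87.6%. TATATAA, searched on both strands, was found in 13 of the 14 Mup promoters, against 3.24% of the 32851 promoters in the table. It lay at -11 to -5 from the annotated start in Mup3, -8 to -2 in Mup21, -2 to 4 in Mup11 and -25 to -19 in Mup17. Its distance to the annotated start thus differed among copies, so positions counted from that start are approximate. AGAACA, or TGTTCT on the other strand, was found in Mup3 (positions -204 to -199 from the start) and Mup21 (-198 to -193) and in no other of the 14, against 19.0% of all promoters. The STAT5 type motif TTCNNNGAA (8.3% of all promoters) and the C/EBP type motif TTGCNNAA (10.8%) were found in none of the 14 windows.

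Together the 7 members made up 3.59% ± 0.776 (SD, n = 4) of all liver counts in the Veh NPD group, 2.13% ± 0.645 (n = 3) in Veh HPD, 1.44% ± 0.791 (n = 4) in Cort NPD and 0.471% ± 0.0507 (n = 4) in Cort HPD. As CPM, their sum in the Veh NPD libraries was 42568, 31462, 34374 and 29614 for replicates 1 to 4, and in the Veh HPD libraries 19366, 14895 and 25003 for replicates 1 to 3. It was 23168, 8238, 18763 and 6711 in the Cort NPD libraries and 7154, 4611, 4597 and 4787 in the Cort HPD libraries. Every cort library lay below every veh library of the same diet, every Veh HPD library lay below every Veh NPD library, and the ranges of the cort groups overlapped. With cort the mean sum was 2.43-fold lower among NPD mice and 3.74-fold lower among HPD mice. Under veh the HPD mean was 1.75-fold below the NPD mean, and under cort 2.69-fold below it. No test was made of the sum, since its members were chosen with results known. The sum over all 21 Mup genes gave nearly the same folds, 2.48 and 3.8 for cort on the NPD and HPD, because the 7 members held 94.5% to 98.5% of the family's counts in the 15 libraries.

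**Figure D1:**
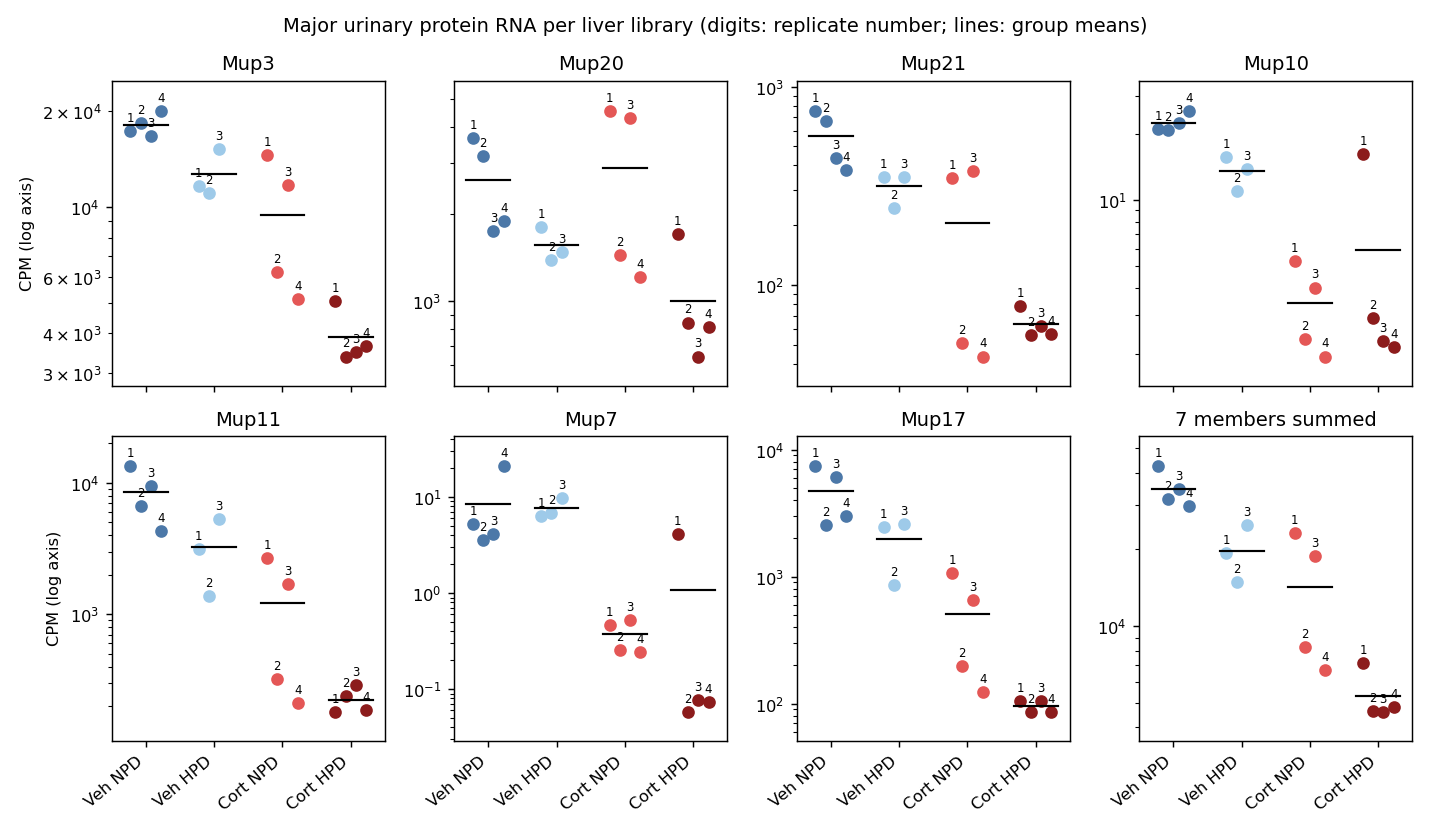
Level of each of the 7 Mup genes and of their sum in CPM (log axis) in the 15 liver libraries, by group; each point is 1 library, labelled with its replicate number, and lines are group means. Cort NPD replicates 1 and 3 sit above replicates 2 and 4 in every panel, and Mup20 is the panel in which those 2 libraries reach above all veh libraries.

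The first comparison asked whether cort changed the level of each copy in mice on the NPD. Cort lowered 5 of the 7 (Mup3, Mup10, Mup11, Mup7 and Mup17), raised none, and left Mup20 and Mup21 uncalled. Among all genes tested 5.79% were called lower and 6.84% higher in this comparison, and the median log2 change was -2.74 over the 7 members and -0.0052 over all genes.

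Mup3, the member with the most counts, was at 17220, 18355, 16641 and 20029 CPM in the Veh NPD libraries and at 14512, 6216, 11732 and 5121 CPM in the Cort NPD libraries. The groups did not overlap, but the Cort NPD libraries spread 2.83-fold from lowest to highest, against 1.2-fold under veh. The fitted log2 fold change was -0.94 (SE 0.25, adjusted p = 0.0166), which is 1.92-fold lower. Without Cort NPD replicate 2 it was -0.79 and no longer called (adjusted p = 0.0618).

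Mup11 and Mup17, whose 3′ ends share many windows, were both called lower. Mup11 was at 13450, 6703, 9457 and 4273 CPM under veh on the NPD and at 2663, 319, 1692 and 212 CPM under cort. Mup17 was at 7446, 2531, 6067 and 2990 CPM under veh and at 1068, 199, 654 and 123 CPM under cort. In both genes the groups were apart and replicates 1 and 3 were the high ones in each group. The log2 change was -2.79 (SE 0.77, adjusted p = 0.0356) for Mup11 and -3.22 (SE 0.68, adjusted p = 0.0094) for Mup17. Leaving out any 1 of 6 libraries (Veh NPD replicates 1 to 3 and Cort NPD replicates 2 to 4) took Mup11 past the threshold, to adjusted p between 0.0533 and 0.0829, whereas Mup17 was called without each of the 15 libraries in turn. Without Cort NPD replicate 1 the log2 changes were -3.52 and -3.87.

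Mup10 and Mup7 had far fewer counts. Mup10 was at 21.2, 20.9, 22.5 and 25.7 CPM under veh on the NPD and at 5.31, 2.33, 4.01 and 1.94 CPM under cort, groups that were well apart (log2 change -2.74, SE 0.60, adjusted p = 0.011). Mup7 was at 5.21, 3.61, 4.15 and 21.1 CPM under veh and at 0.461, 0.259, 0.53 and 0.243 CPM under cort, where each library held between 3 and 7 counts. Its log2 change was -4.50 (SE 1.16, adjusted p = 0.0253). That call was lost without Veh NPD replicate 4, the library with 21.1 CPM (log2 change -3.52, adjusted p = 0.0627), and without any 1 of the 4 Cort NPD libraries (adjusted p between 0.0547 and 0.0693).

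Mup21 was at 757, 673, 437 and 381 CPM under veh on the NPD and at 347, 50.8, 376 and 43.6 CPM under cort. The highest Cort NPD library was just under the lowest Veh NPD library, the Cort NPD libraries spread 8.61-fold, and the log2 change of -1.46 (SE 0.62) was not called (adjusted p = 0.156). Mup20 was at 3669, 3175, 1747 and 1895 CPM under veh and at 4573, 1451, 4305 and 1209 CPM under cort. Replicates 1 and 3 of Cort NPD were above all 4 veh libraries and replicates 2 and 4 below all of them, and the log2 change was 0.14 (SE 0.45, adjusted p = 0.89). Its sign turned in 5 of the alternative fits, with values down to -0.18.

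The same question on the HPD gave 3 called members, Mup3, Mup11 and Mup17, all lower. All 7 fitted changes were below 0, with a median of -2.31 against -0.0041 over all genes, of which 5.14% were called lower and 4.75% higher. On library totals without TMM factors 5 members were called, while the median of all genes moved to -0.24 and the calls to 275 higher and 1268 lower, from 589 and 637. Mup3 was at 11625, 11015 and 15220 CPM in the Veh HPD libraries and at 5056, 3384, 3492 and 3642 CPM in the Cort HPD libraries. The groups were clearly separate, with a log2 change of -1.70 (SE 0.27, adjusted p = 0.000366), or 3.24-fold lower. Mup11 went from 3107, 1366 and 5324 CPM to 181, 237, 291 and 187 CPM (log2 change -3.87, SE 0.83, adjusted p = 0.0135). Mup17 went from 2449, 862 and 2601 CPM to 104, 86.2, 105 and 86.6 CPM (log2 change -4.37, SE 0.73, adjusted p = 0.0034). Under veh these genes varied about 3- to 4-fold among the libraries of the HPD group (3.02 for Mup17, 3.9 for Mup11), and under cort by 1.22 and 1.61. Each of the 3 calls held without any 1 of the 15 libraries.

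The other 4 members were lower in mean with cort on the HPD but were not called. Mup21 was at 348, 245 and 348 CPM under veh and at 78.4, 55.7, 62.4 and 56.9 CPM under cort, with no overlap and a log2 change of -2.31 (SE 0.67) just outside the threshold (adjusted p = 0.0507). It was called when Cort NPD replicate 2, 3 or 4 was left out (adjusted p between 0.0185 and 0.0435), as those libraries enter the shared estimate of the spread. Mup20 was at 1814, 1390 and 1486 CPM under veh and at 1714, 844, 644 and 812 CPM under cort (log2 change -0.64, SE 0.49, adjusted p = 0.464).

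The results for Mup10 and Mup7 turned on Cort HPD replicate 1 and on the test. Mup10 was at 15.7, 11.1 and 14.0 CPM in the Veh HPD libraries and at 16.4, 2.91, 2.29 and 2.15 CPM in the Cort HPD libraries. With all of them the log2 change was -1.23 (SE 0.60, adjusted p = 0.238), and without replicate 1 it was -2.46 (SE 0.28, adjusted p = 5.98e-06). Mup7 was at 6.36, 6.82 and 9.79 CPM under veh and at 4.15, 0.0581, 0.0764 and 0.0742 CPM under cort, which is 49 counts in replicate 1 and 1 count in each of the others. Its log2 change was -2.91 (SE 1.05, adjusted p = 0.111). Without replicate 1 the gene was called (adjusted p = 0.00038), on 3 libraries with too few counts for a fold. With all 4 Cort HPD libraries, voom with or without quality weights called 6 of the 7 members on the HPD, Mup10 and Mup7 among them. The TMM factor of this library, 0.754, was the lowest of the 15 (the others were 0.912 to 1.11), which raises its CPM relative to the others, and its Alb level, 202006 CPM, was the highest. The part of these in its Mup10 and Mup7 levels was not tested.

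**Figure D2:**
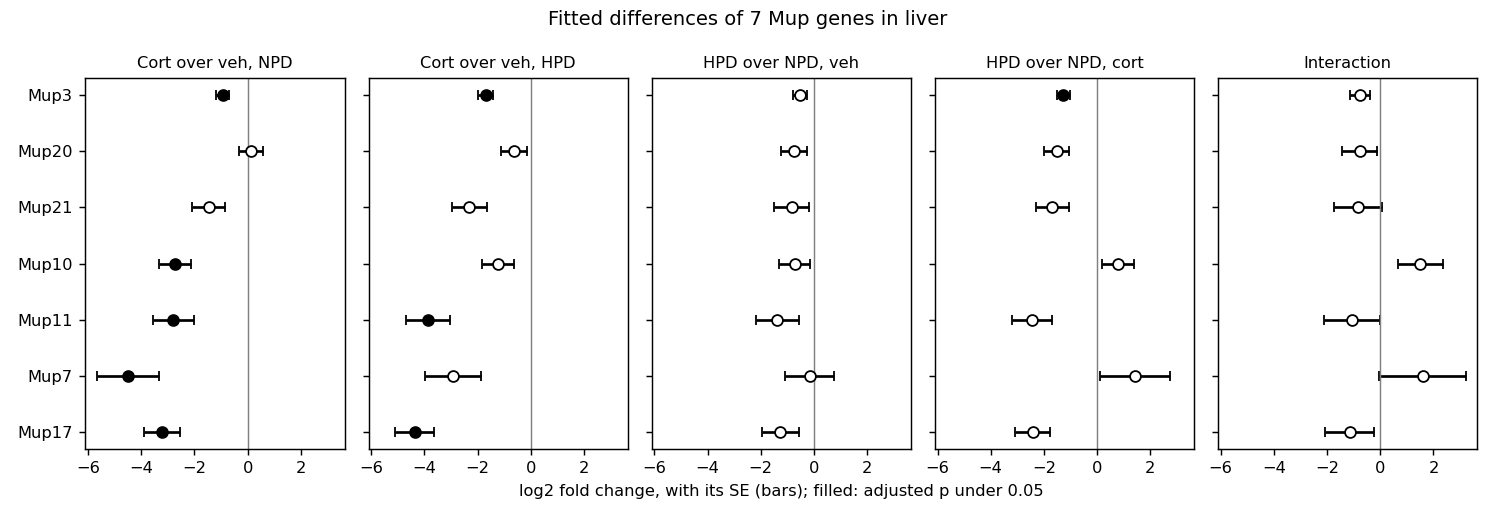
Fitted log2 changes (x axis) of the 7 Mup genes in 5 liver comparisons, with bars for the SE and filled points for adjusted p under 0.05. Points lie left of 0 for all 7 genes in cort over veh on the HPD and for 6 of 7 on the NPD, and 1 point, Mup3, is filled in HPD over NPD under cort.

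The diet was compared under veh first. None of the 7 members was called by edgeR's test, and none had an unadjusted p under 0.05. All 7 fitted changes were below 0, between -0.16 (Mup7) and -1.38 (Mup11), with a median of -0.75, but Mup7 turned to 0.82 without Veh NPD replicate 4, and also turned above 0 with voom and with the replicate block. Few genes responded at all in this comparison, 0.0646% of those tested lower and 0.105% higher. For Mup3, each Veh HPD library was below each Veh NPD library, with a log2 change of -0.52 (SE 0.27, adjusted p = 0.574), and Mup21 and Mup10 were likewise apart without being called. DESeq2 and voom called no member either.

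Under cort, mice on the HPD had lower Mup3 than mice on the NPD. The 4 Cort HPD values, 3384 to 5056 CPM, all lay below the 4 Cort NPD values, 5121 to 14512 CPM, though the highest of the former was close to the lowest of the latter. The log2 change was -1.27 (SE 0.26, adjusted p = 0.0048), a 2.41-fold difference, and the call held without any 1 library. Of all genes 2.8% were called lower and 3.08% higher, so 1 called member of 7 is a small number to read against that share. On library totals without TMM factors the split was 729 lower and 222 higher, with 3 members called. Mup17 was also apart between these groups, 86.2 to 105 CPM against 123 to 1068 CPM, with a log2 change of -2.42 (SE 0.66) that missed the threshold (adjusted p = 0.054). Mup20, Mup11 and Mup21 had log2 changes of -1.52, -2.45 and -1.69 with adjusted p of 0.0761, 0.0879 and 0.147, and in these genes Cort NPD replicates 2 and 4 lay in or near the Cort HPD range. Mup17 and Mup20 were called without either of these replicates (adjusted p between 0.0259 and 0.0476), and Mup11 without replicate 4 (0.0452). Without Cort NPD replicate 1, on the other hand, the log2 changes of Mup11 and Mup17 were -1.73 and -1.77 (adjusted p of 0.208 and 0.125). Mup10 and Mup7 were higher in mean on the HPD (0.78 and 1.43), through Cort HPD replicate 1. Without it both turned below 0, Mup10 to -0.45 and Mup7 with too few counts for a fold.

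Whether cort acted differently on the diets was tested as an interaction. No member was called by edgeR's test, and none had an unadjusted p under 0.05. Of all genes 0.0565% were called in each direction. Mup3 came nearest, with a log2 difference of -0.75 (SE 0.37, unadjusted p = 0.0538, adjusted p = 0.426), the cort change being the larger on the HPD. The cort changes on the diets, side by side, were -0.94 and -1.70 for Mup3, -2.79 and -3.87 for Mup11, and -3.22 and -4.37 for Mup17, on the NPD and HPD in that order. Without Cort NPD replicate 1 the interaction of Mup11 was -0.35 and that of Mup17 -0.50, against -1.07 and -1.15 with it.

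The make-up of the summed counts changed along with their size. Mup11 and Mup17 together made up 37% ± 11.9 (SD, n = 4) of the sum in the Veh NPD libraries, 25.1% ± 8.9 (n = 3) in Veh HPD, 9.97% ± 5.24 (n = 4) in Cort NPD and 6.33% (3.99% to 8.62%, n = 4) in Cort HPD. Mup20 held 7.55% ± 2.24 and 8.21% ± 1.97 of it under veh on the NPD and HPD, and 19.5% ± 2.41 and 18.3% ± 4.19 under cort. The highest share of Mup20 in a veh library, 10.1%, was below the lowest in a cort library, 14.0%. Mup3 held from 40.5% of it, in Veh NPD replicate 1, where Mup11 and Mup17 together held 49.1%, to 76.3% in Cort NPD replicate 4.

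**Figure D3:**
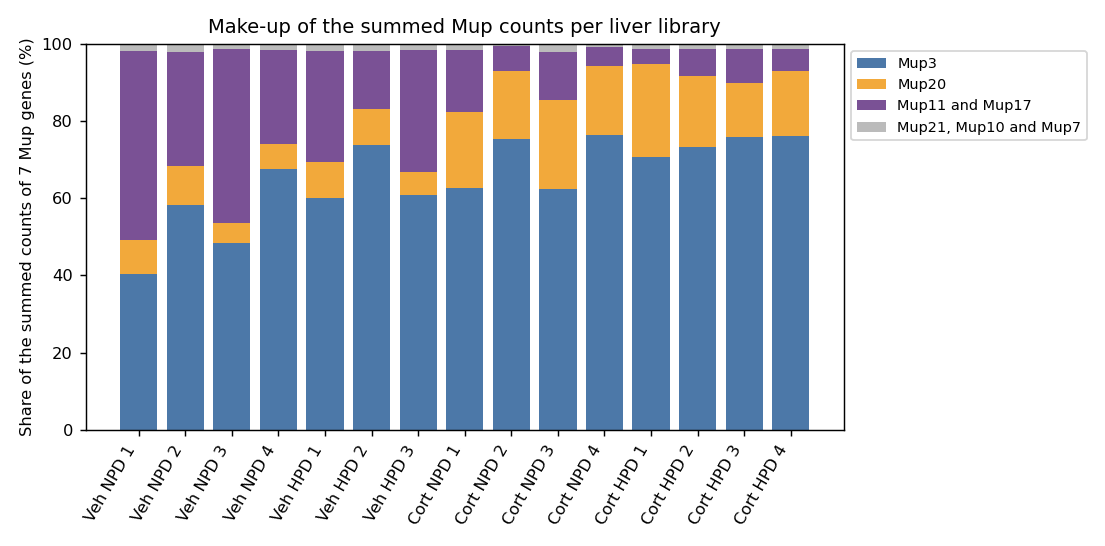
Share of the summed counts of the 7 Mup genes (y axis, %) taken by Mup3, by Mup20, by Mup11 with Mup17 and by the remaining 3 genes, for each of the 15 liver libraries. The part of Mup11 with Mup17 is 24.5% to 49.1% in Veh NPD libraries and 4.99% to 16.1% in Cort NPD libraries.

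The members varied together across the libraries. Over the 15 libraries, Pearson's r of log2 CPM between 2 members ranged from 0.377 (Mup20 with Mup7) to 0.988 (Mup11 with Mup17), with a median of 0.777 over the 21 pairs. These values include the differences between groups, and all genes share the depth and scaling of a library. With group means removed the median was 0.685. The closest pairs were then Mup11 with Mup17 (0.951), Mup20 with Mup21 (0.896), Mup21 with Mup11 (0.885), Mup3 with Mup21 (0.871) and Mup10 with Mup7 (0.862). Mup20 and Mup21 share none of the 50-base windows of their 3′ ends, and Mup3 shares none with Mup17 (r 0.758). Only windows identical in all 50 bases were counted, so shorter stretches may be shared. The part of shared reads in these r values was not tested. Mup7 stood apart from Mup11 (-0.03) and Mup17 (0.123), although 60.8% and 45.1% of its windows occur in them. Mup7 held 49 counts in Cort HPD replicate 1 and 1 count in each other library of that group, and Mup10 held 193 against 29 to 50. In Veh NPD replicate 4 Mup7 was at 21.1 CPM, against 3.61 to 5.21 CPM in the rest of its group. How far the r values of Mup7 and Mup10 rest on these libraries was not tested.

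**Figure D4:**
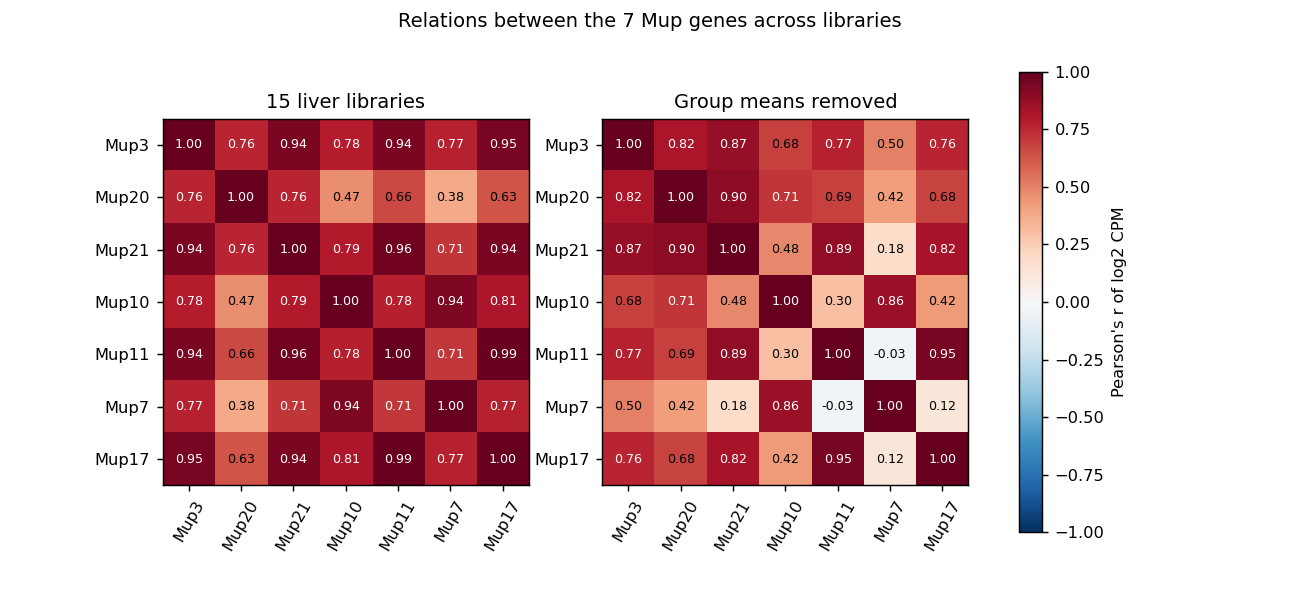
Pearson's r of log2 CPM between the 7 Mup genes over 15 liver libraries (left) and after removing group means (right), on a colour scale from -1 to 1. Mup11 with Mup17 has the highest value in both (0.988 and 0.951), and Mup7 is near 0 with Mup11 once group means are removed.

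Rows of other Mup genes were called lower with cort as well, though many of these copies share most of their 3′ ends with other genes. Of the 14 other Mup genes, 12 passed the filter on low counts. Cort lowered 9 of them in NPD mice and 11 in HPD mice, against 5.79% and 5.14% of all genes, and raised none. With a library left out, 5 to 9 of the 9 stayed called (5 without Cort NPD replicate 2) and 7 to 11 of the 11 (7 without Veh HPD replicate 1), and with all 16 liver libraries 3 of the 9 and 2 of the 11. Their median log2 change was -2.23 on the NPD and -2.87 on the HPD, or -2.69 with Mup8 and Mup15, which had 3 or fewer counts in every Cort HPD library, set at their bound. The most abundant were Mup16, at 508.5 ± 220 CPM (SD, n = 4) in Veh NPD and 132 ± 111 (n = 4) in Cort NPD, and Mup18, at 459 ± 218.5 and 97.2 ± 67.7. Mup16 was called on the HPD (log2 change -2.72, SE 0.63, adjusted p = 0.02) and not on the NPD (-1.95, adjusted p = 0.051), and Mup18 was called on both (-2.24 and -2.66). Mup12, Mup1, Mup9, Mup2, Mup6, Mup14 and Mup15 were called lower on both diets, Mup5 on the NPD only in this test, and Mup4 and Mup8 on the HPD only in this test. The difference of these cort effects between diets was called for none of the 12, and neither was a diet effect under veh or cort. Of the 27 Mup pseudogenes, 8 passed the filter and 6 were called lower on each diet, and 5 of the 8 averaged under 1 CPM. Among the 12 genes, the share of 3′ windows found in no other gene was 96.2% for Mup6, 74.1% for Mup4, 64.5% for Mup5 and 39.0% for Mup1. It was 19.9% for Mup18, 17.9% for Mup12, 12.7% for Mup9, 6.37% for Mup16, 2.7% for Mup14 and 0% for Mup2, Mup8 and Mup15. How many reads of these genes and pseudogenes came from the 7 members was not tested.

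**Figure D5:**
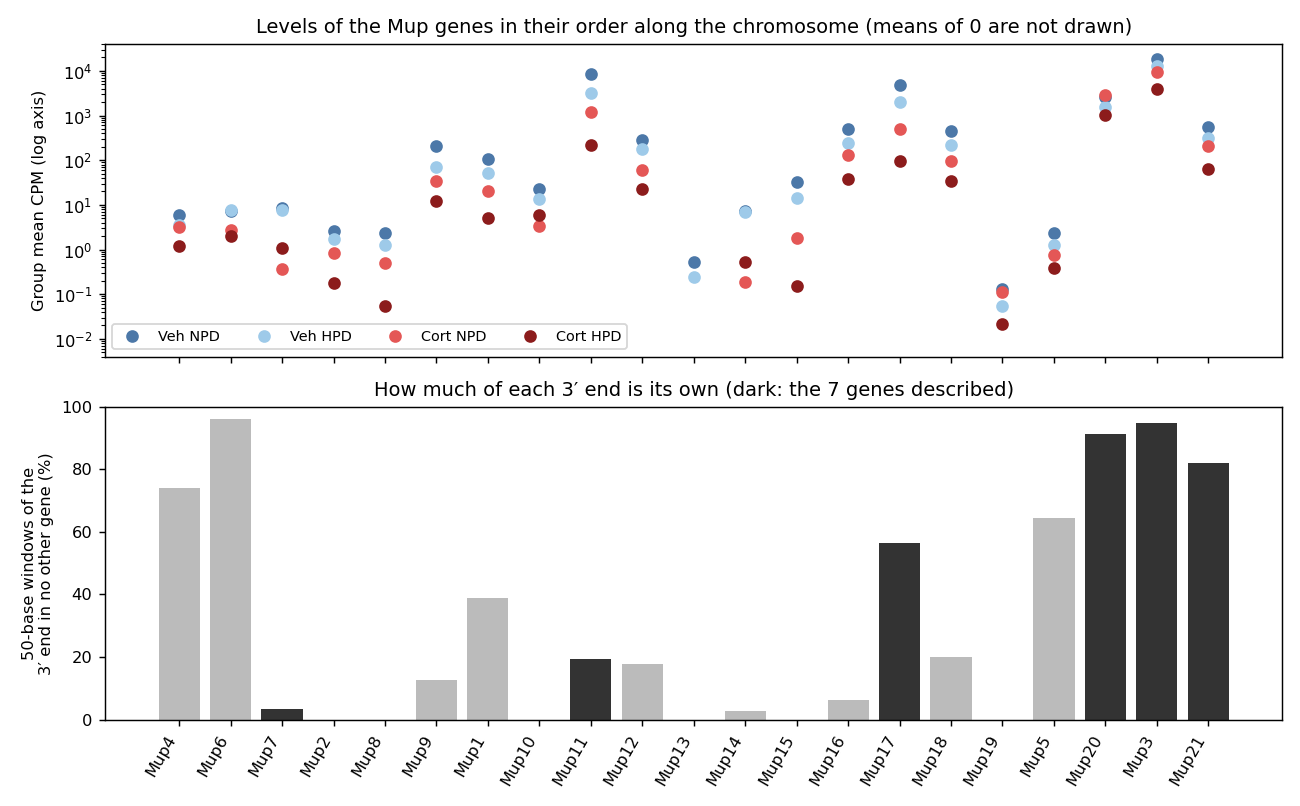
Group mean CPM (log axis) of the 21 Mup genes with a row, in their order along chromosome 4 (above), and the share of 50-base windows of each 3′ end that occur in no other gene (below, dark for the 7 genes described). Within a diet the veh mean lies above the cort mean in all 21 genes, except for Mup20 on the NPD, and the 6 genes with the highest shares of unshared windows (Mup4, Mup6, Mup5, Mup20, Mup3 and Mup21) stand at the edges of the cluster.

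The transcripts were those of liver. In the 16 eWAT libraries, Mup20, Mup10 and Mup7 had no count, Mup21 and Mup17 had counts in 1 library each, Mup11 in 7 and Mup3 in 11, and the sum of the 7 was at most 3.57 CPM. Hepatocyte markers were present there at a low level too, with Alb at 31.8 to 83.3 CPM, against 33606 to 202006 CPM in the 15 liver libraries. In the library left out, Veh HPD replicate 4, 172.5 of the 445.5 CPM were Mup3 and 264 were Mup20, which was 59.3% of its Mup counts.

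Other markers moved with the groups. The summed level of 7 Kupffer cell and macrophage markers was 122 to 175.5 CPM in veh libraries and 54.4 to 107 CPM in cort libraries, with 5 of the 7 called lower for cort in NPD mice and 4 in HPD mice. T and B cell markers, 6 in all, summed to 1.95 to 5.84 CPM under veh and 0 to 0.994 CPM under cort, and 6 exocrine pancreas markers to 33 to 123.4 CPM and 17.2 to 24.2 CPM. The 6 endothelial markers were at 125.1 to 148.4 CPM in Cort HPD and 160.1 to 239.1 CPM in the other groups. The 5 cholangiocyte markers were at 26.5 to 41.7 CPM under veh and 41.9 to 65.5 CPM under cort. The 5 salivary or lacrimal gland markers were at 171.6 to 327.8 CPM and 311.1 to 858.2 CPM. Only 1 of these 5 passed the filter, and their sum in eWAT was similar, 185.3 to 295.9 CPM. Of the exocrine pancreas markers 3 passed the filter, and of the T and B cell markers 2. The 5 red blood cell markers summed to 5266 to 7616 CPM in Cort HPD and 1357 to 3541 CPM in the other groups. The summed level of the 10 hepatocyte markers did not fall with the Mup genes: it was 75002 to 117695 CPM in veh libraries and 99242 to 248279 CPM in cort libraries. Alb, the gene of serum albumin, rose with cort on the HPD (log2 change 1.77, SE 0.25, adjusted p = 9.61e-05) and was at 0.60 on the NPD (adjusted p = 0.0782). Much of the hepatocyte sum was Alb, with a mean of 132687 CPM in Cort HPD. Ttr, transthyretin, also rose on the HPD, whereas on the NPD Apoa1, Fgb and Tat fell and Cps1 rose. The median log2 change of the 10 markers was -0.166 on the NPD and -0.0104 on the HPD. Less RNA of a gene per hepatocyte and fewer hepatocytes cannot be told apart in whole tissue, and the part of these other cell types in the Mup values was not tested. Muscle markers summed to 394.5 CPM at the highest in Cort NPD (group median 7.0) and to at most 36.4 CPM in the other groups.

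Genes of growth hormone signalling, the pathway best known to drive Mup transcription, were read from a list of 17, all of which passed the filter. Cort lowered 2 in NPD mice and 4 in HPD mice and raised none, with medians of -0.22 and -0.23. Beside the 5.79% and 5.14% of all genes called lower, these are small counts from which nothing particular to the list can be read. Ghr, the growth hormone receptor, went from 373.5 ± 46.3 CPM (SD, n = 4) to 204 ± 23.4 (n = 4) on the NPD (log2 change -0.87, SE 0.18, adjusted p = 0.0024) and from 331 ± 102 (n = 3) to 183.5 ± 38.4 (n = 4) on the HPD (-0.85, adjusted p = 0.0063), where leaving out Veh HPD replicate 3 ended the call (-0.57, adjusted p = 0.0762). Socs2, an inhibitor that STAT5 induces, went from 47.2 ± 22.0 to 10.8 ± 1.3 CPM on the NPD (log2 change -2.13, SE 0.31, adjusted p = 0.000284) and was lower by a like amount on the HPD (-2.65). Onecut1, a liver transcription factor, was called lower on the HPD (-2.44, adjusted p = 0.0088), where 1 of the 3 veh libraries was high at 20.1 CPM, and without Veh HPD replicate 3 it was not called (-1.25, adjusted p = 0.0623). Igf1, the main endocrine product of the pathway, and Stat5b, its transcription factor, were not called in any comparison, and neither were Nr3c1, the glucocorticoid receptor, or Zhx2, a repressor of several liver genes.

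Sex-biased genes of liver are set by the same hormone pulses, and the Mup genes belong to the male-biased set. With cort, 5.79% of all genes were called lower and 6.84% higher on the NPD, and 5.14% lower and 4.75% higher on the HPD. Of 29 male-biased genes other than Mup, 10 were called lower and 1 higher with cort on the NPD. On the HPD 13 were called lower and 1 higher, and the medians were -0.57 on the NPD and -1.21 on the HPD. Among those called lower, Nudt7, Lifr and Cyp2u1 had the lowest p-values on both diets. Nudt7, a peroxisomal coenzyme A hydrolase, had a log2 change of -2.67 for NPD mice and -2.63 for HPD mice. For Lifr, a cytokine receptor, it was -1.40 and -1.93, and for Cyp2u1, a fatty acid hydroxylase, -1.62 and -1.28. The 1 gene that rose on both was Sult1d1, a sulfotransferase (1.49 and 1.47). Of 36 female-biased genes 22 passed the filter, and 10 were called higher in NPD mice and 9 in HPD mice, none lower, at medians of 1.98 and 1.51. Among them were Cyp39a1, an oxysterol hydroxylase, from 4.5 ± 1.68 to 45.1 ± 7.1 CPM on the NPD (log2 change 3.33) and Cyp2b10, a cytochrome P450, from 1.98 ± 1.79 to 362 ± 102 CPM (7.47). Under cort, 4 of the 29 male-biased genes were lower in HPD mice, against 2.8% of all genes. Among the 4 were Nat8 (-1.41, adjusted p = 0.000344), Serpina12 (-3.30, adjusted p = 0.00068) and Slco1a1, an organic anion transporter (-0.98, adjusted p = 0.0159). The call of Slco1a1 was lost without Cort NPD replicate 1 or 3 or Cort HPD replicate 3 (adjusted p between 0.0531 and 0.0603). No gene of the lists was called for diet under veh or for the interaction.

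Other members of the lipocalin and related fatty acid binding families did not move as one. Of 17 listed, 12 passed the filter. With cort, 4 were called higher and 3 lower on the NPD, and 3 higher and 2 lower on the HPD, with medians of -0.00758 and 0.145. The shares of all genes called were 6.84% higher and 5.79% lower on the NPD, and 4.75% and 5.14% on the HPD. Lcn2, lipocalin 2, rose from 6.02 ± 2.02 to 174 ± 66.2 CPM on the NPD (log2 change 4.86, adjusted p = 3.74e-08), and Orm3, an orosomucoid, from 4.93 ± 1.49 to 32.9 ± 7.29 CPM (2.74, adjusted p = 5.6e-09). Obp2a rose on the NPD (5.16, adjusted p = 0.001) and under cort was lower in HPD mice (-4.42). Fabp1, the fatty acid binding protein of liver, fell on both diets (-1.81 and -1.77) and, like Mup3, was lower on the HPD under cort (-1.04, adjusted p = 0.0101). Of 26 transcription factors of hepatocytes and hormones, 1 was higher and 2 were lower with cort on the NPD, and 2 higher and 7 lower on the HPD. The NPD counts are near the shares of all genes called. Cebpb (-0.93 and -1.44) and Xbp1 (-0.82 and -1.03) fell on both, but the NPD call of Cebpb was lost without Veh NPD replicate 2 or 4 or Cort NPD replicate 3 or 4 (adjusted p between 0.051 and 0.0647). Zbtb20 was lower on the HPD under cort (-1.05), and the call of Rxra (-0.46) was lost without any 1 of 8 libraries (adjusted p between 0.0522 and 0.105).

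By r of log2 CPM with the summed members over the 15 libraries, the 5 nearest of 12364 genes outside the family were Dio1 (0.966), which activates thyroid hormone, Gm13775 (0.946), Ugt2b1 (0.94), a glucuronosyltransferase, Slco1a1 (0.937) and Prok1 (0.932). With group means removed, r was 0.954 for Ugt2b1, 0.889 for Slco1a1, 0.81 for Dio1, 0.683 for Gm13775 and 0.68 for Prok1. The 5 genes were picked by their r over these same libraries. That choice favours high values within groups and a like order of groups, so neither is separate support. Ugt2b1 ranged from 314 to 1147 CPM among the Cort NPD libraries, and from 786 to 917 CPM among the Veh NPD libraries. Dio1 was at 159 ± 26.5 CPM in Veh NPD, 72.2 ± 29.3 in Veh HPD, 55.7 ± 23.5 in Cort NPD and 18.0 ± 10.8 in Cort HPD, the same order of groups as the summed Mup level. Cort lowered it in NPD mice (log2 change -1.52) and in HPD mice (-2.01), and under cort HPD mice had less of it (-1.63).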

How the data were processed

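Liver and eWAT RNA of 32 libraries was measured with a QuantSeq 3′ mRNA kit. A table of raw counts, 1 column per library, was deposited by the authors. The submitters' processing notes name GRCm38, mm10, R 4.0.3 and limma, whereas the aligner, the counting program and the handling of reads that map to several genes were not given in the sources used here. Reads of near-identical copies may be shared, moved or dropped by such handling. Symbols and positions came from GENCODE M21, in which 47224 gene IDs matched and 419 did not. Depth was 8933307 to 17447524 counts per liver library used.

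The 15 liver libraries, without Veh HPD replicate 4, were fitted in R 4.3.3 with edgeR 4.0.16 (TMM factors, filterByExpr with a minimum count of 10 and a minimum total of 15, robust quasi-likelihood test) with 1 mean per group. Benjamini-Hochberg adjustment ran over all 12391 genes. The common biological coefficient of variation was 0.228. Log2 CPM for correlations used a prior count of 2. Alternatives were RLE factors, library totals without factors, totals and factors without the Mup family, no filter, DESeq2 1.42.0, limma 3.58.1 voom with and without quality weights, only the 2 groups compared, all 16 liver libraries, the replicate number as a block, and each library left out. No alternative was added later. On simulated counts with 200 genes changed by a log2 value of 2, the test recovered 100% for cort on the NPD (4.76% of calls false) and 94.5% for the interaction (4.55% false), among 12209 genes. The simulation gave all genes the same spread and changed the Cort NPD group only. Among the members the within-group SD of log2 CPM ran from 0.408 (Mup3) to 1.63 (Mup7), so the recovered shares do not apply to them.

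Named genes were the 7 members, other Mup genes past the filter, up to 3 called genes in each direction per list and comparison, 6 fixed genes (Alb, Ghr, Stat5b, Igf1, Nr3c1 and Zhx2) and the 5 nearest by correlation. Some genes that this rule names are not reported here. A few others, such as Apoa1, Fgb, Tat, Cps1 and Ttr, were named after their values were seen. The members and lists were chosen with earlier results of these data known, and the lists (125 entries, all matched) were written from general knowledge. Identity of promoters is over aligned, ungapped bases. Whether equal replicate numbers pair the mice was checked by the correlation of deviations from group means, which was over 0.1 in 3 of 21 same-numbered pairs (range -0.131 to 0.161), so the numbers were not taken as pairs. No 2 libraries held identical counts.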

Additional observations from a re-analysis of the deposited data

Results flagged for a closer look

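In groups of 4 libraries, a library was listed where its gap to the nearest other, as a share of the group's range, exceeded Dixon's critical value at the 95% level, which chance does in about 1 in 20 groups. Over 27 groups this gave 6 cases, 5 of them in Cort HPD replicate 1. In that library Mup3 was at 5056 CPM (gap 0.846 of the range), Mup10 at 16.3 CPM (0.947), Mup7 at 4.15 CPM (0.996), the 7 members together at 7154 CPM (0.926) and the whole family at 7265 CPM (0.931). As a share of the library's counts, without TMM scaling, its members stood at 0.54% against 0.419% to 0.469% in the other Cort HPD libraries. The sixth case was Mup7 in Veh NPD replicate 4, at 21.1 CPM (0.908), against 3.61 to 5.21 CPM in the rest of its group. The Veh HPD group, with 3 libraries, was not examined in this way.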

How the results depend on the processing

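Members called for cort on the NPD numbered 5 of 7, but 3 with DESeq2 or with only the 2 groups compared, 0 with all 16 liver libraries, and 2 to 5 with a library left out (2 without Cort NPD replicate 2, 3 without replicate 3 or 4). For cort on the HPD the number was 3, and 5 on library totals without factors, 6 with voom with or without quality weights, 0 with all 16 liver libraries, and 3 to 5 with a library left out (5 without Cort HPD replicate 1). For diet under cort it was 1, and 3 on library totals, 4 with DESeq2, 3 with voom with or without weights, 0 with all 16 liver libraries, 3 with the replicate block, and 1 to 4 with a library left out (4 without Cort NPD replicate 4, 3 without replicate 2). The replicate block changed no other number of called members, and 4 of 15 libraries correlated best with their own number. The share of all genes called moved as well. For cort on the NPD it was 12.6%, and 15.2% with DESeq2, 14.7% with 2 groups and 8.12% with 16 libraries. For cort on the HPD it was 9.89%, and 12.5% on library totals, 10.3% with voom, 12.2% with weights and 9.07% with 16 libraries. For diet under cort it was 5.88%, and 7.67% on library totals, 8.68% with DESeq2, 5.71% with voom, 8.34% with weights, 5.2% with the block and 3.02% with 16 libraries. Under veh and for the interaction no alternative called a member. The cause was not tested, except that 16 libraries include the one nearly without Mup counts.

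Signs turned only in values that were not called. Mup20 for cort on the NPD was -0.038 with voom, -0.15 with weights, and -0.03, -0.18 and -0.13 without Veh NPD replicate 3, Cort NPD replicate 1 and Cort NPD replicate 3. Without Cort HPD replicate 1, diet under cort was -0.45 for Mup10 and -2.28 for Mup7, and the Mup7 interaction -2.12, where both Mup7 values rest on 1 count in each remaining Cort HPD library and are no folds. With voom, Mup7 was 0.20 for diet under veh, -0.73 for diet under cort and -0.93 for the interaction, and with weights 0.31, -1.55 and -1.86. With weights, Mup10 for diet under cort was -0.13 and the Mup11 interaction 0.12. Mup7 for diet under veh was 0.43 with the replicate block and 0.82 without Veh NPD replicate 4. With a library left out, these values ran from -0.18 to 0.38 for Mup20 with cort on the NPD, from -0.45 to 1.08 for Mup10 and -2.28 to 1.88 for Mup7 in diet under cort, and for Mup7 from -0.40 to 0.82 in diet under veh and -2.12 to 2.04 in the interaction.

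On library totals the median of all genes moved to -0.24 for cort on the HPD (275 higher and 1268 lower calls, against 589 and 637), -0.18 for diet under cort (222 and 729, against 382 and 347) and -0.22 for the interaction. Summed log2 ratios stayed within 1 within-group SD (0.514) of those reported under the other scalings, with all 16 libraries, pooled, by medians and with a library left out, the alternatives run for them. Genes called for diet under veh numbered 21, and 5 to 111 elsewhere, and for the interaction 14, and 1 to 125.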
